A study of Mus musculus with 26 samples.

Results

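Tying off the LAD (left anterior descending coronary artery) leaves an infarct that cardiac fibroblasts turn into a scar, and the data here describe these cells 14 days later. The comparison set all 4 day 14 libraries against all 9 undamaged libraries, 13 of the 26 RNA sequencing libraries of the series. Members were chosen by time point alone. Each library held RNA of stromal cells sorted from dissociated hearts of C57BL/6 mice (B6.129S4-Pdgfratm11(EGFP)Sor/J), which express a nuclear green fluorescent protein (H2BEGFP) from the Pdgfra locus. Day 14 and undamaged cells alike carried this reporter, were sorted as CD45- (no leukocytes), CD31- (no endothelium) and GFP+, and were separated into gates by the Ly6a product Sca-1, a surface antigen. The day 14 group comprised Sca-1 positive and Sca-1 negative libraries of the codes D1 and D9. The undamaged group comprised 5 Sca-1 positive libraries (codes E1, E3, F3, A6 and B7) and 4 Sca-1 negative libraries (codes E5, F3, A6 and B7). Whether a library or a code stands for 1 animal or for several is not stated, nor is the age of the mice, so p-values measure the spread between these libraries. The reporter limits the view to cells that made or retained the green protein, so cells without the green protein were not sampled.

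After an infarct, resident fibroblasts pass through a proliferative phase and a contractile myofibroblast phase and then settle in the mature scar, where they secrete a collagen-rich matrix and cross-link it. Transforming growth factor beta drives this secretory program, and matricellular proteins such as periostin and CTHRC1 mark the cells that carry it out. Resting cardiac fibroblasts, in contrast, express genes for steroid, retinoid and lipid handling.

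The day 14 libraries held 19587113 to 48836726 counts in genes, and the undamaged libraries 10883870 to 22276361 counts. Both D9 libraries were the deepest. The number of genes with a count was 15546 to 16013 in day 14 libraries, against 12325 to 15309 in undamaged libraries, and 3 undamaged libraries stood apart at the low end: A6 and B7 of the negative gate and B7 of the positive gate, with 12325 to 12977 genes. These 3 are among the 4 undamaged libraries that carry a number before their code, as every day 14 library does, so the check against those 4 libraries leans on libraries that stand apart. Replicate codes also differed in sex-linked genes. Xist, which is transcribed from the inactive X chromosome, stood at 304 and 836 CPM (counts scaled to a common library size) in the D9 libraries with Y-linked genes at or near 0, whereas D1 and all undamaged libraries had Xist at 0.687 CPM or less and expressed Ddx3y at 58.2 to 109.9 CPM. Sex and code cannot be told apart within day 14, so results are also given without D1 and without D9. Without D1, all day 14 libraries differ from all undamaged libraries in these sex-linked genes. Sex and day 14 therefore cannot be told apart in the results without D1.

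Of 13815 genes tested, 760 (5.5%) were higher and 481 (3.48%) lower at day 14 than in undamaged cells. A call, here and below, is an adjusted p under 0.05 in edgeR's quasi-likelihood test with the gate in the model, by the method of Benjamini and Hochberg across the tested genes. In both gates, all day 14 libraries were above all undamaged libraries for 899 genes (6.51%) and below them for 465 (3.37%). The change exceeded 2-fold for 545 of the higher and 187 of the lower genes. Along the first principal component (28.1% of the variance of log2 CPM), all 4 day 14 libraries lay on the opposite side to all 9 undamaged libraries. Against the 4 undamaged libraries with a number before the code, 401 of 13518 genes (2.97%) were higher and 164 (1.21%) lower. That check called 326 of the 760 higher and 130 of the 481 lower genes again, and all 1235 called genes with a value in it kept their direction. Because libraries of the same code deviated together, the gates of each code were also summed, which left 2 day 14 codes against 3 undamaged codes. In that test, which has fewer samples, 42 genes were higher and 5 lower. A random effect of the code kept both gates and called 676 genes higher (4.89%) and 328 lower (2.37%). Without both D1 libraries 236 genes were higher and 107 lower, and without both D9 libraries the counts were 506 and 159. Leaving out the 3 undamaged libraries with few genes instead gave 1815 higher and 1677 lower genes. Values after ± are standard errors of log2 differences (day 14 minus undamaged), and day 14 levels are given for D1 and then D9 in each gate.

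Cthrc1 (ENSMUSG00000054196.7, chromosome 15, 39076932 to 39087121 in GRCm38), which encodes a secreted protein of collagen-producing cells in scars, had the smallest adjusted p of all genes. Cthrc1 stood at 209 and 73.2 CPM in the Sca-1 positive and 229.7 and 242 CPM in the Sca-1 negative day 14 libraries, against 0.422 to 2.63 CPM (median 1.22) in undamaged libraries. Every day 14 library lay far above every undamaged library, with the positive D9 library the lowest of the 4. The log2 difference was 6.94 ± 0.37 (adjusted p = 1.38e-07), and Cthrc1 was still called with the gates of a code summed (adjusted p = 0.00408) and against the 4 undamaged libraries with a number (adjusted p = 0.000205). In bulk libraries a change in the share of cells that express a gene and a change in RNA per cell cannot be told apart. Postn (ENSMUSG00000027750.16, chromosome 3, 54361109 to 54391037) encodes periostin, a matricellular protein of activated cardiac fibroblasts. Postn stood at 3927 and 3246 CPM in the Sca-1 positive and 4979.8 and 2582 CPM in the Sca-1 negative day 14 libraries, against 388 to 2106 CPM (median 515) in undamaged libraries. All day 14 libraries were above all undamaged libraries (log2 difference 2.36 ± 0.39, adjusted p = 0.00143), although the call was lost with summed codes (adjusted p = 0.154).

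Of 26 matricellular genes tested, 10 were higher and 2 lower, with a median log2 difference of 0.07 against -0.02 over all genes. The higher ones included Sparc, a collagen-binding glycoprotein, Tnn and Tnc, which encode tenascins, Fn1 (fibronectin), Thbs4, Wisp1 and Spp1. Sparc stood at 12495 and 9632 CPM in the Sca-1 positive and 12369 and 9137 CPM in the Sca-1 negative day 14 libraries, against 2396 to 3754 CPM (median 3443) in undamaged libraries. The day 14 libraries had about the same level in both gates and none overlapped with undamaged (log2 difference 1.75 ± 0.15, adjusted p = 8.52e-06). Tnn stood at 11.8 and 7.26 CPM in the Sca-1 positive and 41.5 and 10.1 CPM in the Sca-1 negative day 14 libraries, against 0 to 0.333 CPM (median 0.0509) in undamaged libraries, where it was nearly undetected. Its fitted log2 difference of 7.62 ± 0.68 (adjusted p = 9.1e-06) depends on the prior count of the fit, as for all genes near 0 counts in undamaged libraries. Fn1 stood at 5405 and 5847 CPM in the Sca-1 positive and 10614 and 2624 CPM in the Sca-1 negative day 14 libraries, against 154 to 2417 CPM in undamaged libraries. Fn1 overlapped with no undamaged library, and its highest undamaged level, in the positive library F3, was close to the lowest day 14 level (log2 difference 3.92 ± 0.55, adjusted p = 0.000392). The 2 lower genes were Smoc1 and Efemp1, which encode proteins of the basement membrane and the elastic matrix. With summed codes the call was kept by Cthrc1 and Tnn only.

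Collagens formed the list with the most higher genes. Of 24 collagen genes tested, 14 were higher and none lower (median log2 difference 0.73), among them the major scar collagens Col1a1, Col1a2 and Col3a1 and Col5a1, Col5a2 and Col11a1, which regulate fibril diameter. Col1a1 stood at 19228 and 15603 CPM in the Sca-1 positive and 25829 and 12442 CPM in the Sca-1 negative day 14 libraries, against 3204 to 4863 CPM (median 4303) in undamaged libraries. Col3a1 stood at 30833 and 31355 CPM in the Sca-1 positive and 29990.0 and 21550.0 CPM in the Sca-1 negative day 14 libraries, against 5223 to 7659.5 CPM (median 6770.0) in undamaged libraries. For both genes even the lowest day 14 library, negative D9, exceeded each undamaged library. The log2 differences were 2.13 ± 0.19 for Col1a1 (adjusted p = 9.11e-06) and 2.09 ± 0.15 for Col3a1 (adjusted p = 1.68e-06). Col8a2, a short-chain collagen, stood at 66.2 and 55.8 CPM in the Sca-1 positive and 151 and 83.7 CPM in the Sca-1 negative day 14 libraries, against 9.67 to 23.3 CPM (median 14.9) in undamaged libraries (log2 difference 2.46 ± 0.23, adjusted p = 1.21e-05). It was the only collagen of the list called with summed codes, where Col3a1 and Col1a1 had adjusted p of 0.0529 and 0.0597. The collagen count was 9 without D1 and 10 without D9.

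**Figure D1:**
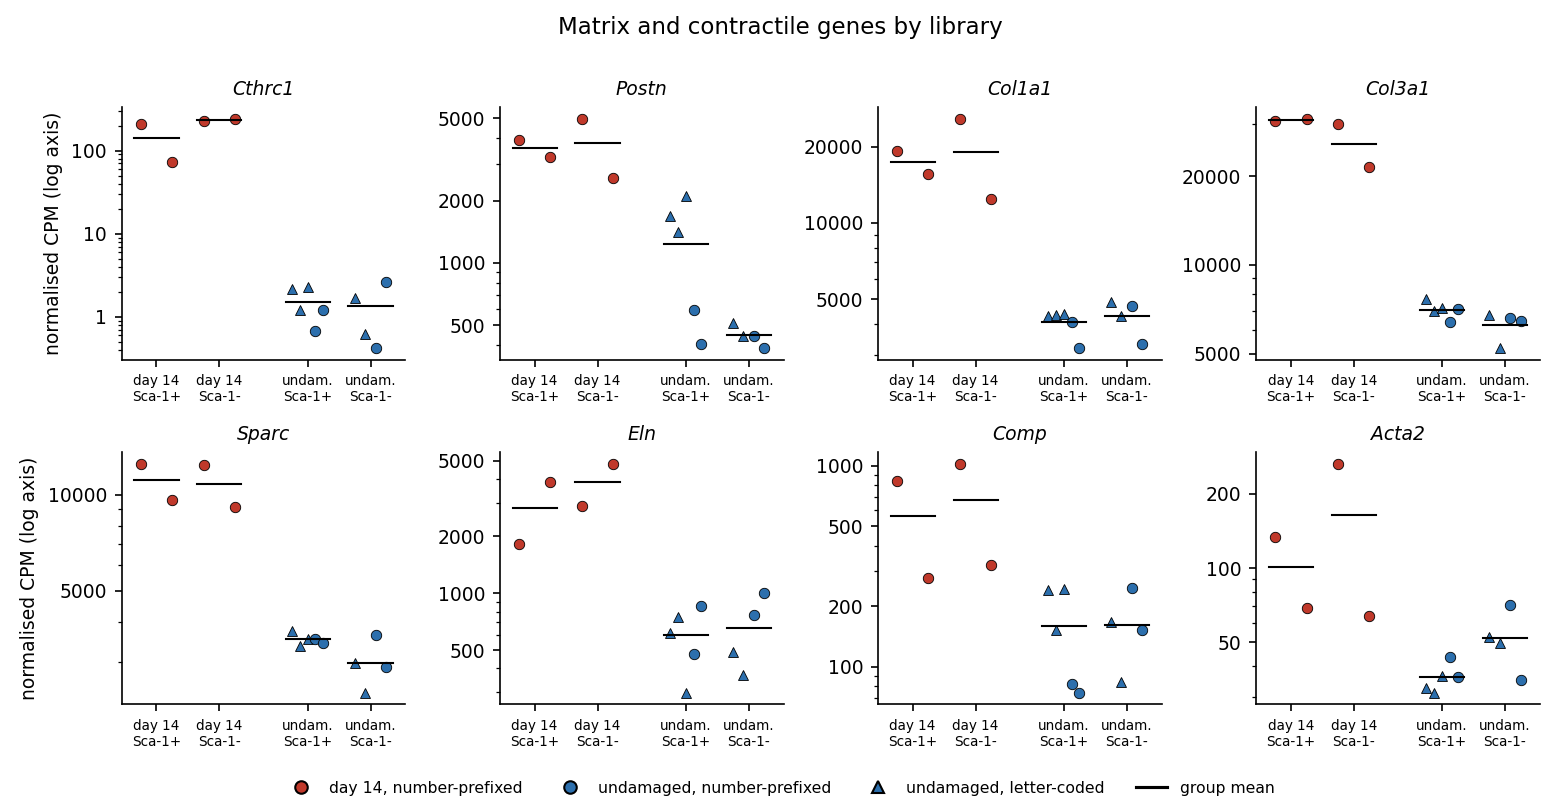
Levels of 8 matrix and contractile genes in each library, in TMM-normalised CPM on a log axis, with day 14 left of undamaged in each gate. Circles are libraries with a number before the code and triangles those without, the left day 14 point is D1 and the right D9, and black bars are group means. Only Acta2 has day 14 libraries within the undamaged range.

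Promoter windows are shown for the scar genes Col3a1 and Postn, which were both called higher, with matches to the letters TATAAA of the TATA box in capitals. They are 300-base RefSeq windows of GRCm38.p6 on the + strand, 250 bases before to 50 after a gene start, at chr1:45311288-45311587 for Col3a1 and chr3:54360857-54361156 for Postn. The match begins 117 bases before the start in Col3a1 and 26 bases before it in Postn.
Col3a1: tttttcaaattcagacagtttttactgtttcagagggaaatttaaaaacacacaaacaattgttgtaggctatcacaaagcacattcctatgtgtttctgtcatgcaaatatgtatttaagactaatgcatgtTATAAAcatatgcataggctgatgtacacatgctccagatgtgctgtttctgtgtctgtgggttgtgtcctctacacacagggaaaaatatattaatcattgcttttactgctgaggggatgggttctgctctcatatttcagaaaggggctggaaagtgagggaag
Postn: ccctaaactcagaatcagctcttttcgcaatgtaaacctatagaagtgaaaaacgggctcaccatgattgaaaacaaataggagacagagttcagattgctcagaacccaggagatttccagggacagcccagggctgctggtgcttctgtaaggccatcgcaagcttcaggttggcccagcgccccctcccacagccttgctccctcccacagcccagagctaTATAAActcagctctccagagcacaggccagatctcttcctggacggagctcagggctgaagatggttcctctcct
Windows were found for 81 of the 110 genes that the naming rule gave. TATAAA, on either strand, was in 9.76% of 707 windows of genes called higher, 10.4% of 481 windows of genes called lower and 7.5% of 13367 windows of all genes tested. TGACTCA, the AP-1 site, was in 5.38%, 3.95% and 3.91% of these windows in the same order, GGAATG, the TEAD site, in 15.3%, 12.1% and 12.5%, and the CArG box of serum response factor in 1.13%, 1.04% and 1.31%. Matches to the CArG box and to TATAAA can coincide, since a CArG box can hold these letters. A match describes letters in a window, not a site in use.

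Enzymes that modify and cross-link collagen followed. Of 23 such genes tested, 7 were higher and none lower (median 0.33). They were P4ha3 and Plod2, which hydroxylate proline and lysine residues, Adamts2 and Bmp1, which cleave procollagens, the cross-linking enzymes Lox and Loxl2, and Serpinh1, the collagen chaperone HSP47. Lox stood at 995 and 567 CPM in the Sca-1 positive and 1329.7 and 519 CPM in the Sca-1 negative day 14 libraries, against 94.1 to 358 CPM in undamaged libraries (log2 difference 1.96 ± 0.30, adjusted p = 0.000869). P4ha3 stood at 28.5 and 24.8 CPM in the Sca-1 positive and 29.5 and 21.8 CPM in the Sca-1 negative day 14 libraries, against 0 to 3.72 CPM (median 0.612) in undamaged libraries (log2 difference 4.69 ± 0.55, adjusted p = 8.69e-05). Lox and P4ha3 were above the undamaged range in each day 14 library. None of the 7 was called with summed codes, where P4ha3 and Plod2 had adjusted p of 0.0757 and 0.0765, and 3 were called without D1.

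Elastic fibre and proteoglycan genes were higher in 10 of 23 cases and lower in none (median 0.43). Eln encodes elastin, which gives tissue its recoil. Eln stood at 1816 and 3858 CPM in the Sca-1 positive and 2899 and 4843 CPM in the Sca-1 negative day 14 libraries, against 297 to 1004 CPM (median 615) in undamaged libraries. The D9 library was above the D1 library in both gates, the opposite of the order seen for Postn (log2 difference 2.40 ± 0.29, adjusted p = 0.000132). Mfap2, a microfibril component, was narrow within day 14, at 82.5 and 88.2 CPM in the Sca-1 positive and 80.4 and 97.5 CPM in the Sca-1 negative day 14 libraries, against 20.4 to 42.7 CPM (median 39.7) in undamaged libraries (log2 difference 1.25 ± 0.14, adjusted p = 7.81e-05). The other higher genes of the list were Ncam1, Mfap5, Mfap4, Fbn1, Fbn2, Aspn, Ltbp2 and Lum. With summed codes none was called, and Eln and Mfap2 had adjusted p of 0.0893 and 0.0593.

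Genes of cartilage and tendon matrix had the highest median of the matrix lists, 1.84, with 10 of 23 tested genes higher and 2 lower. Comp, which encodes cartilage oligomeric matrix protein, an organiser of collagen fibrils, belongs to this list. Comp stood at 841 and 278 CPM in the Sca-1 positive and 1024 and 322 CPM in the Sca-1 negative day 14 libraries, against 74.1 to 247 CPM (median 153) in undamaged libraries. No library overlapped, but the D9 libraries were just above the highest undamaged library (log2 difference 1.93 ± 0.38, adjusted p = 0.00481), and without D1 Comp was not called (adjusted p = 0.402). Clu, which encodes the extracellular chaperone clusterin, stood at 1362 and 141 CPM in the Sca-1 positive and 2081 and 248 CPM in the Sca-1 negative day 14 libraries, against 23.5 to 95.3 CPM (median 38.8) in undamaged libraries. D1 exceeded D9 severalfold in both gates, and both exceeded all undamaged libraries (log2 difference 4.37 ± 0.48, adjusted p = 5.51e-05). Runx1, a transcription factor that is switched on in injured hearts, stood at 94.02 and 34.7 CPM in the Sca-1 positive and 153 and 56.2 CPM in the Sca-1 negative day 14 libraries, against 3.49 to 20 CPM (median 8.48) in undamaged libraries (log2 difference 3.21 ± 0.41, adjusted p = 0.000188). Fmod, Acan, Cilp, Cilp2, Matn3, Col2a1 and Scx were also higher, and Alpl and Cytl1 lower. Without D1 the list had 5 higher and 2 lower, and with summed codes none.

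Contractile genes of smooth muscle and myofibroblasts were higher in 9 of 21 cases and lower in 1, Lmod1 (median 0.38). Acta2 stood at 133 and 68.9 CPM in the Sca-1 positive and 265 and 63.96 CPM in the Sca-1 negative day 14 libraries, against 31.2 to 70.9 CPM (median 36.7) in undamaged libraries. Acta2, the gene of smooth muscle actin, was high in the D1 libraries, whereas both D9 libraries lay within the undamaged range. It was called over all libraries (log2 difference 1.57 ± 0.27, adjusted p = 0.00185), but not without D1 (adjusted p = 0.187), against the 4 undamaged libraries with a number (adjusted p = 0.0718) or with summed codes (adjusted p = 0.199). Mylk, the kinase of myosin light chain, stood at 38.4 and 49.9 CPM in the Sca-1 positive and 54.7 and 50.6 CPM in the Sca-1 negative day 14 libraries, against 6.22 to 25.7 CPM (median 14.2) in undamaged libraries. It was even across day 14 and was the list's only call with summed codes (log2 difference 1.85 ± 0.21, adjusted p = 6.85e-05; summed codes, adjusted p = 0.0348). Actn1, Csrp2, Tpm1, Tpm2, Tagln, Vcl and Actg2 were also higher.

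Among proteases and their inhibitors, 6 of 29 were higher and 1 lower (median 0.11). Adam12, a membrane metalloprotease found on activated perivascular cells, stood at 73.7 and 50.4 CPM in the Sca-1 positive and 131 and 23.9 CPM in the Sca-1 negative day 14 libraries, against 1.81 to 7.77 CPM (median 2.82) in undamaged libraries (log2 difference 4.26 ± 0.41, adjusted p = 1.74e-05). Ctsk, the collagen-degrading cathepsin K, stood at 321 and 170.2 CPM in the Sca-1 positive and 181 and 219 CPM in the Sca-1 negative day 14 libraries, against 73.1 to 130.3 CPM (median 95.4) in undamaged libraries (log2 difference 1.15 ± 0.17, adjusted p = 0.000626). Neither gene overlapped between the groups. Adamts9, Adamts12, Adamts16 and Timp1 were also higher and Timp4 lower, and Adam12 alone was called with summed codes (adjusted p = 0.0343).

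Genes of TGF-beta and bone morphogenetic protein (BMP) signalling had calls in both directions, with ligands on both sides. Of 30 tested, 4 were higher and 7 lower (median -0.22). The higher ones included the ligand Tgfb3, the secreted BMP antagonist Grem1 and Fstl1, a secreted follistatin-like protein. Tgfb3 stood at 551 and 475 CPM in the Sca-1 positive and 775 and 698 CPM in the Sca-1 negative day 14 libraries, against 171 to 267 CPM (median 220.5) in undamaged libraries (log2 difference 1.53 ± 0.15, adjusted p = 1.68e-05). Tgfb3 was above the undamaged range in every day 14 library and was called with summed codes (adjusted p = 0.0453). Those that fell comprised the ligands Bmp2 and Bmp4, the BMP target genes Id1 and Smad6, the receptors Eng and Acvrl1, which endothelial cells also express, and Fstl3. Their log2 differences were small, such as -0.84 ± 0.15 for Id1 (adjusted p = 0.00188) and -0.38 ± 0.10 for Bmp4 (adjusted p = 0.0279). None of the 7 was called against the 4 undamaged libraries with a number.

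Of 28 genes of Wnt signalling tested, 8 were higher and 2 lower (median 0.68). The ligand Wnt4 stood at 60.1 and 22.9 CPM in the Sca-1 positive and 132 and 37.3 CPM in the Sca-1 negative day 14 libraries, against 1.39 to 5.16 CPM (median 2.84) in undamaged libraries. Its lowest day 14 library was well above its highest undamaged library (log2 difference 4.35 ± 0.32, adjusted p = 1.68e-06), and it was called with summed codes (adjusted p = 0.0284). Sfrp2, a secreted Wnt modulator, stood at 1499 and 658 CPM in the Sca-1 positive and 1295 and 801 CPM in the Sca-1 negative day 14 libraries, against 67.995 to 347 CPM (median 129) in undamaged libraries (log2 difference 2.73 ± 0.38, adjusted p = 0.000353). Wnt2, Rspo1, Sfrp1, Fzd1, Fzd2 and the feedback inhibitor Nkd1 were also higher. Wif1, a secreted Wnt inhibitor, moved the other way. Wif1 stood at 1.77 and 1.37 CPM in the Sca-1 positive and 5.34 and 15.4 CPM in the Sca-1 negative day 14 libraries, against 3.36 to 232 CPM (median 20.1) in undamaged libraries. Wif1 depended on the gate in undamaged cells, and within each gate both day 14 libraries were below all undamaged libraries (log2 difference -3.01 ± 0.56, adjusted p = 0.00317). The call was lost with summed codes (adjusted p = 0.12) and without D1 (adjusted p = 0.0636). The RefSeq window of Wif1, at chr10:121033754-121034053 in GRCm38.p6 on the + strand, is shown for contrast with Postn, with its only TATAAA match, on the opposite strand 232 bases before the start, in capitals.
Wif1: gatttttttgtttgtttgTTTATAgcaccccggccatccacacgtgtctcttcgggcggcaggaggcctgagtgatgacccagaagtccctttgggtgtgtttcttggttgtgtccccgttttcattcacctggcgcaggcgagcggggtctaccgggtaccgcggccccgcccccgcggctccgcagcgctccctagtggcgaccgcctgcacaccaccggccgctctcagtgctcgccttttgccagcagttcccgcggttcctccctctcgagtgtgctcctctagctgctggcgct

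Among insulin-like, fibroblast and platelet-derived growth factors and related cytokines, 7 of 26 genes were higher and none lower (median 0.11). The related heparin-binding growth factors Mdk (midkine) and Ptn (pleiotrophin) rose together. Mdk stood at 63.1 and 57.98 CPM in the Sca-1 positive and 113 and 133 CPM in the Sca-1 negative day 14 libraries, against 6.89 to 34.8 CPM (median 11.2) in undamaged libraries (log2 difference 2.46 ± 0.17, adjusted p = 1.63e-06). Ptn stood at 95.9 and 94.7 CPM in the Sca-1 positive and 222 and 283 CPM in the Sca-1 negative day 14 libraries, against 8.45 to 73.5 CPM (median 22.7) in undamaged libraries (log2 difference 2.37 ± 0.20, adjusted p = 7.52e-06). Both genes were higher in the negative than in the positive gate in each group, and for both every day 14 library was above all undamaged ones. They were also the list's calls with summed codes (adjusted p = 0.00683 for Mdk and 0.00875 for Ptn). Igf1, the insulin-like growth factor, stood at 577 and 660.0 CPM in the Sca-1 positive and 451 and 559.8 CPM in the Sca-1 negative day 14 libraries, against 219 to 478 CPM (median 314) in undamaged libraries (log2 difference 0.87 ± 0.18, adjusted p = 0.00741), with overlap of a single day 14 library, negative D1. Without D9 it was not called (adjusted p = 0.0991). Pdgfc, Fgfr2, Igfbp6 and Fgf18 completed the higher genes.

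Of 27 chemokines, cytokines and their receptors, 5 were higher and 2 lower (median -0.18), and against the 4 undamaged libraries with a number 8 were higher and 1 lower (median 0.45). Cxcl12, the stromal ligand of CXCR4, stood at 540.5 and 323 CPM in the Sca-1 positive and 278 and 190.3 CPM in the Sca-1 negative day 14 libraries, against 108 to 184 CPM (median 142) in undamaged libraries (log2 difference 1.26 ± 0.21, adjusted p = 0.00157). Cxcl13, which attracts B cells, stood at 117 and 23.1 CPM in the Sca-1 positive and 20.5 and 15.4 CPM in the Sca-1 negative day 14 libraries, against 0 to 6.44 CPM (median 0.0706) in undamaged libraries (log2 difference 6.08 ± 0.88, adjusted p = 0.000525). For both genes the positive D1 library was the highest and no library overlapped. Il1rl1, Il1r1 and Tnfrsf11b were also higher, and Tslp and Ccl19 lower. Of 17 complement genes, C2 alone was called (5.88%, near the 5.5% called higher over all genes). C2 stood at 70.9 and 39.3 CPM in the Sca-1 positive and 28.7 and 17.6 CPM in the Sca-1 negative day 14 libraries, against 1.44 to 9.32 CPM (median 6.34) in undamaged libraries (log2 difference 2.67 ± 0.38, adjusted p = 0.000397). Against the 4 undamaged libraries with a number 3 of 17 complement genes were higher, beside 2.97% of all genes. One of them was Cfb, complement factor B, named after its values were seen, which was not called over all libraries (log2 difference 1.84 ± 0.56, adjusted p = 0.0544), but was against those 4 (log2 difference 3.59, adjusted p = 0.00303) and with a random effect of the code (adjusted p = 0.0449). None of the genes called over all libraries was called with summed codes, where Cxcl12, Cxcl13 and C2 had adjusted p of 0.12, 0.0802 and 0.0765.

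Several of the largest increases fell outside these lists. Cemip, which encodes a protein that degrades hyaluronan, stood at 25.8 and 28.1 CPM in the Sca-1 positive and 36.1 and 17.4 CPM in the Sca-1 negative day 14 libraries, against 0 to 0.889 CPM (median 0.0420) in undamaged libraries (log2 difference 7.24 ± 0.66, adjusted p = 1.13e-05). Gatm, an enzyme of creatine synthesis, stood at 27.1 and 7.97 CPM in the Sca-1 positive and 76.4 and 33.9 CPM in the Sca-1 negative day 14 libraries, against 0 to 0.348 CPM (median 0.212) in undamaged libraries (log2 difference 7.65 ± 0.57, adjusted p = 1.68e-06). Chl1, a neural cell adhesion molecule, stood at 48.2 and 24.5 CPM in the Sca-1 positive and 77.4 and 3.94 CPM in the Sca-1 negative day 14 libraries, against 0 to 0.222 CPM (median 0) in undamaged libraries (log2 difference 9.75 ± 0.76, adjusted p = 2.8e-06). All 3 were close to undetected in undamaged cells, and each was called with summed codes. The microfibrillar collagen gene Col6a5 stood at 1027 and 88.3 CPM in the Sca-1 positive and 633 and 118 CPM in the Sca-1 negative day 14 libraries, against 0.671 to 19.8 CPM (median 4.38) in undamaged libraries (log2 difference 6.40 ± 0.79, adjusted p = 0.000133). Saa3, an acute-phase serum amyloid A, stood at 261 and 15.1 CPM in the Sca-1 positive and 762 and 60.8 CPM in the Sca-1 negative day 14 libraries, against 0 to 6.06 CPM (median 1.22) in undamaged libraries (log2 difference 6.74 ± 0.89, adjusted p = 0.000237). Both were many times higher in D1 than in D9, as were Col24a1 (fibrillar collagen), Cxadr (a junction protein and virus receptor) and Serpinb2 (a plasminogen activator inhibitor), whose log2 differences were 8.60 ± 0.80, 8.04 ± 0.83 and 8.46 ± 0.97. With a random effect of the code, Chl1, Saa3, Cxadr and Serpinb2 were not called (adjusted p = 0.0542, 0.0533, 0.0729 and 0.102).

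Genes of the resting cardiac fibroblast fell. Of 22 tested, 11 were lower and none higher (median -0.54). Hsd11b1 (ENSMUSG00000016194.14, chromosome 1, 193221634 to 193264075), which regenerates active glucocorticoid, stood at 156 and 44.5 CPM in the Sca-1 positive and 255 and 98.8 CPM in the Sca-1 negative day 14 libraries, against 322 to 988 CPM (median 496) in undamaged libraries. The day 14 libraries were all below the undamaged range, and D9 was lower than D1 in both gates (log2 difference -2.11 ± 0.32, adjusted p = 0.000713). Apoe, the apolipoprotein of lipid transport, stood at 1020.1 and 914 CPM in the Sca-1 positive and 1362 and 1829 CPM in the Sca-1 negative day 14 libraries, against 1444 to 5149 CPM (median 2519) in undamaged libraries, with no overlap within a gate (log2 difference -1.26 ± 0.20, adjusted p = 0.00107). Abca8a, a lipid transporter gene, stood at 779.7 and 1143 CPM in the Sca-1 positive and 1083 and 945 CPM in the Sca-1 negative day 14 libraries, against 1546 to 2373 CPM (median 1900.4) in undamaged libraries (log2 difference -0.90 ± 0.16, adjusted p = 0.00181). Also lower were the transcription factor genes Tcf21, Tbx20, Tbx18 and Hand2, and Inmt, Gsn, Cxcl14 and Abcc9. Against the 4 undamaged libraries with a number 6 were lower, without D1 5, and with summed codes none, where Hsd11b1 had an adjusted p of 0.132.

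Retinoid and xenobiotic enzymes fell likewise, 8 of 22 against 1 higher, Crabp2, a retinoic acid carrier (median -0.53). Aldh1a1, which makes retinoic acid, stood at 257 and 176 CPM in the Sca-1 positive and 316 and 236 CPM in the Sca-1 negative day 14 libraries, against 399 to 782 CPM (median 466) in undamaged libraries (log2 difference -1.20 ± 0.15, adjusted p = 0.000133). Gstm1, a glutathione transferase, stood at 466 and 491 CPM in the Sca-1 positive and 390.4 and 325 CPM in the Sca-1 negative day 14 libraries, against 673 to 1226 CPM (median 953) in undamaged libraries (log2 difference -1.24 ± 0.18, adjusted p = 0.00047). Aox1, an aldehyde oxidase, stood at 31.6 and 30.5 CPM in the Sca-1 positive and 35.7 and 31.1 CPM in the Sca-1 negative day 14 libraries, against 49.5 to 94.3 CPM (median 70.7) in undamaged libraries (log2 difference -1.16 ± 0.13, adjusted p = 7.49e-05). None of these genes overlapped between the groups. The other lower genes were Aox3, Fmo1, Fmo2, Gstt1 and Cyp2d22. Lipid handling genes were lower in 4 of 24 cases, Apoe, Cd36, Fabp5 and Plin4, and Adipoq was higher. With summed codes no gene of either list was called, and Aox1 had an adjusted p of 0.0529.

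Of the lower genes with a mean of 3 or more on the log2 CPM scale, no overlap in either gate and the same direction against the 4 undamaged libraries with a number, Cyp2e1, a cytochrome P450, had the largest change. Cyp2e1 stood at 0.675 and 0.421 CPM in the Sca-1 positive and 0.687 and 2.72 CPM in the Sca-1 negative day 14 libraries, against 4.28 to 57.5 CPM (median 7.87) in undamaged libraries (log2 difference -3.80 ± 0.52, adjusted p = 0.000305). Nmb, the gene of the peptide neuromedin B, stood at 8.25 and 4.82 CPM in the Sca-1 positive and 12.8 and 10.8 CPM in the Sca-1 negative day 14 libraries, against 15.9 to 89.5 CPM (median 37.1) in undamaged libraries (log2 difference -2.19 ± 0.27, adjusted p = 0.000133). Fmo2, a flavin monooxygenase, stood at 86.2 and 54.5 CPM in the Sca-1 positive and 117 and 51.2 CPM in the Sca-1 negative day 14 libraries, against 134 to 486 CPM (median 386) in undamaged libraries (log2 difference -2.11 ± 0.33, adjusted p = 0.00093). All day 14 values were below all undamaged values for these genes. Cyp2e1 and Nmb were called with summed codes (adjusted p = 0.0348 and 0.0105). By the same rule Wif1, above, and Pecam1, below, came next in size, and Rgcc, Acer2, Apold1 and Ahsg also fell, by log2 differences of -2.17, -2.17, -2.46 and -2.40. Ahsg, a liver-secreted plasma protein gene, and Apold1, an endothelial gene, are not typical of fibroblasts.

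**Figure D2:**
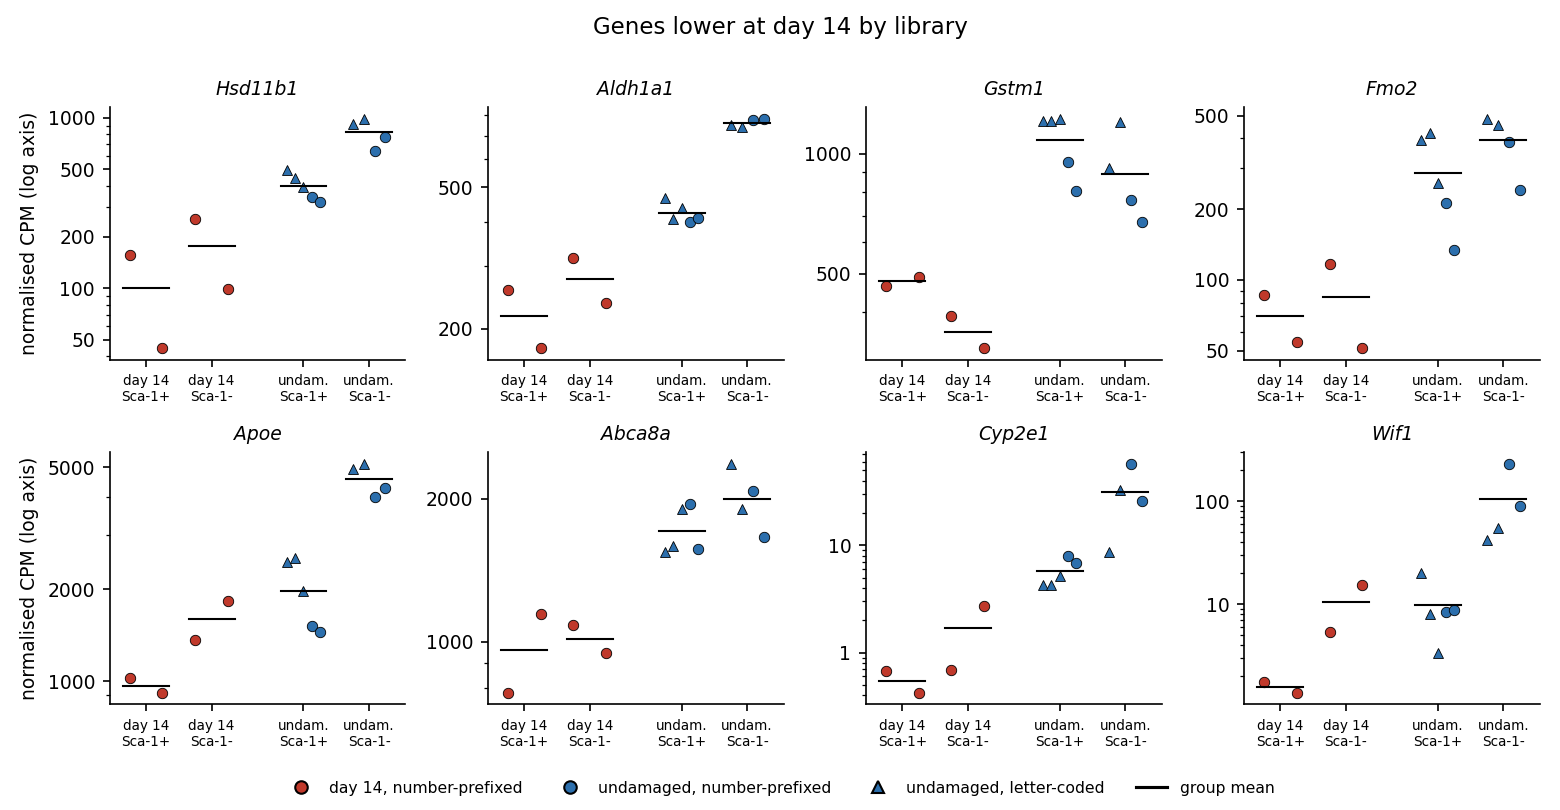
Levels of 8 genes that were lower at day 14, in TMM-normalised CPM on a log axis, with day 14 left of undamaged in each gate, D1 left of D9, circles for libraries with a number before the code, triangles for those without and black bars for group means. Within each gate the day 14 points of each gene lie below all undamaged points.

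Cell cycle genes were higher in 7 of 35 cases and lower in none (median 1.65): Mki67, Top2a, Birc5, Bub1, Bub1b, Kif23 and Prc1. Mki67 stood at 6.54 and 13.02 CPM in the Sca-1 positive and 18.4 and 6.67 CPM in the Sca-1 negative day 14 libraries, against 0 to 4.34 CPM in undamaged libraries. Each day 14 library exceeded all undamaged libraries (log2 difference 3.12 ± 0.81, adjusted p = 0.0243). Bub1b, a spindle checkpoint kinase, stood at 4.00 and 3.83 CPM in the Sca-1 positive and 5.71 and 3.07 CPM in the Sca-1 negative day 14 libraries, against 0.139 to 1.68 CPM (median 0.935) in undamaged libraries (log2 difference 2.13 ± 0.49, adjusted p = 0.0137). Levels were low throughout, and the count depended on the libraries: none was called without D1, 1 without D9, 1 against the 4 undamaged libraries with a number, 1 (Mki67) with summed codes, and 23 without the 3 undamaged libraries with few genes.

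Immediate early and heat shock genes, which also respond to tissue dissociation, were lower in 6 of 29 cases and higher in none (median -0.49). Hspa1b, which shares reads with the near-identical Hspa1a, stood at 563 and 753 CPM in the Sca-1 positive and 621 and 1151 CPM in the Sca-1 negative day 14 libraries, against 953 to 3637 CPM (median 1996) in undamaged libraries (log2 difference -1.54 ± 0.37, adjusted p = 0.0168). The groups overlapped. The summed level of the 29 genes was 26750.5 to 36175 CPM at day 14, against 31179 to 35042 CPM in the 4 undamaged libraries with a number and 43905 to 62928 CPM in the other 5. Against the 4 with a number none of the 29 was called, and the median was -0.03. Of 34 interferon genes only Irgm1 was called, as lower, with an adjusted p of 0.045, and it was not called with a random effect of the code (adjusted p = 0.0974), by limma-voom (adjusted p = 0.0693) or against the 4 undamaged libraries with a number (adjusted p = 0.301). The median of the interferon list was -0.16, and 0.38 against the 4 libraries with a number, where none was lower and 1 higher. Calls were 1 higher and 2 lower of 28 genes of the secretory pathway, 1 and 1 of 21 of glycolysis and 0 and 2 of 27 of oxidative phosphorylation. In the same order 3.57%, 4.76% and 0% were higher, beside 5.5% over all genes. The lower shares were 7.14%, 4.76% and 7.41%, above the 3.48% over all genes but resting on 1 or 2 genes each. With a random effect of the code, 1 of the secretory and 1 of the oxidative phosphorylation genes stayed lower and no other gene of these lists was called.

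Pdgfra, whose promoter drives the reporter used for sorting, stood at 483 and 578 CPM in the Sca-1 positive and 618 and 378 CPM in the Sca-1 negative day 14 libraries, against 446 to 723 CPM (median 615) in undamaged libraries and was not called (log2 difference -0.26 ± 0.16, adjusted p = 0.405). Ly6a, which encodes the antigen that defines the gates, stood at 564 and 482 CPM in the Sca-1 positive and 64.1 and 84.9 CPM in the Sca-1 negative day 14 libraries, and at 288 to 1320.4 CPM in the positive and 19.6 to 95.7 CPM in the negative undamaged libraries. The gate difference was thus present in both groups, with no call between them (log2 difference 0.02 ± 0.45, adjusted p = 0.987), although Ly6a was called higher against the 4 undamaged libraries with a number (log2 difference 1.28, adjusted p = 0.0152). Hic1, a transcription factor gene of quiescent mesenchymal progenitors, was not called either (log2 difference -0.17 ± 0.27, adjusted p = 0.796). Of 28 adventitial progenitor genes 4 were higher (Sema3c, Thy1, Cadm3 and Limch1) and none lower, with a median of -0.01. With a random effect of the code Cadm3 and Limch1 were not called (adjusted p = 0.25 and 0.0854), and against the 4 undamaged libraries with a number 3 genes were higher and the median was 0.57. Thy1 stood at 95.7 and 202 CPM in the Sca-1 positive and 29.4 and 72.1 CPM in the Sca-1 negative day 14 libraries, against 10.5 to 132 CPM (median 61.1) in undamaged libraries, an overlap within the whole set, and was not called without D9 (adjusted p = 0.435).

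**Figure D3:**
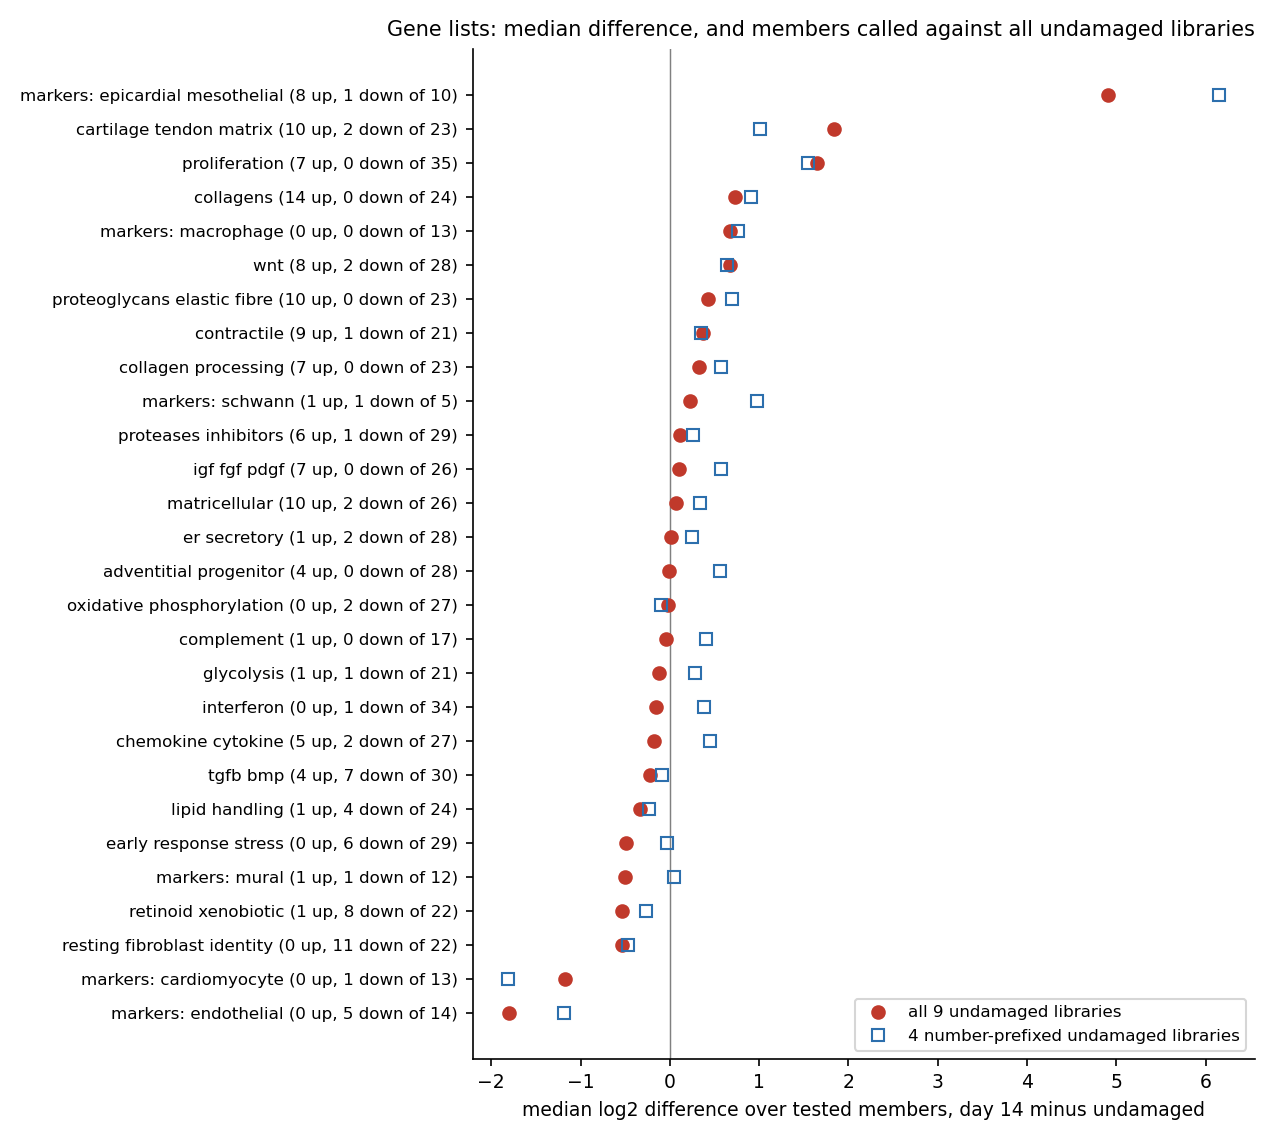
Median log2 difference (day 14 minus undamaged) of each gene list, with red dots for all 9 undamaged libraries and blue squares for the 4 with a number before the code. The matrix lists and cell cycle genes lie to the right of 0 and the resting fibroblast and retinoid lists to the left in both comparisons.

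Within the Sca-1 positive gate 174 genes (1.26%) were higher and 33 (0.239%) lower at day 14, and within the Sca-1 negative gate 304 (2.2%) and 134 (0.97%). The gates were then compared by the interaction itself, since unequal counts do not show unequal change. By edgeR no gene of 13815 was called for a day 14 change that differed between the gates, with 181 at an unadjusted p under 0.05, and limma-voom also called none. DESeq2 called 5, which were therefore named after their values were seen. Ntrk2, Tmem132c and Aoc3 had the higher log2 difference in the positive gate, and Mfap5 and Nov had the higher log2 difference in the negative gate. Ntrk2, the receptor of brain-derived neurotrophic factor, stood at 23.6 and 52.1 CPM at day 14, against 3.53 to 18.1 CPM in undamaged libraries, in the positive gate. In the negative gate it stood at 4.97 and 5.02 CPM at day 14, against 20.6 to 44.7 CPM in undamaged libraries. Ntrk2 was thus above the undamaged range in the positive gate and below it in the negative gate. Nov (CCN3), a matricellular gene, stood at 164 and 174 CPM at day 14, against 44.98 to 92.6 CPM in undamaged libraries, in the positive gate, and at 163 and 91.7 CPM at day 14, against 6.72 to 16.5 CPM in undamaged libraries, in the negative gate. Undamaged levels of Nov did not overlap between the gates, whereas its day 14 levels spanned 91.7 to 174 CPM over both. Col1a1 had log2 differences of 2.11 among positive and 2.15 among negative libraries, Cthrc1 of 6.53 and 7.40, and Hsd11b1 of -1.998 and -2.23. Their interactions had adjusted p of 1, 1 and 1.

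Markers of other cell types also moved with day 14. Of 10 markers of the epicardium and mesothelium, the epithelial covering of the heart, 8 were higher (Wt1, Lrrn4, Upk1b, Upk3b, Krt8, Krt18, Krt19 and Dmkn), 1 was lower (Tbx18, which fibroblasts also express) and Msln was not called. Wt1 stood at 54.3 and 18.01 CPM in the Sca-1 positive and 93.8 and 31.9 CPM in the Sca-1 negative day 14 libraries, against 0 to 1.83 CPM (median 0.723) in undamaged libraries. Upk3b stood at 13.2 and 1.96 CPM in the Sca-1 positive and 38.4 and 11.1 CPM in the Sca-1 negative day 14 libraries, against 0 to 1.84 CPM in undamaged libraries. Lrrn4 stood at 16.2 and 1.68 CPM in the Sca-1 positive and 37.2 and 10.5 CPM in the Sca-1 negative day 14 libraries, against 0 to 0.445 CPM (median 0) in undamaged libraries. For Wt1, Upk3b and Lrrn4, D1 was above D9 within a gate and the negative gate above the positive gate within a code. Not all listed markers shared this order. Krt18 was lower in negative D1 (1.32 CPM) than in negative D9 (2.09 CPM). In Krt8, Krt19 and Upk1b the negative D9 library was above the positive D1 library. The summed level of the list was 281 (D1 negative), 151 (D1 positive), 111 (D9 negative) and 60.4 CPM (D9 positive), against 46.3 to 59.2 CPM in undamaged libraries, and no listed marker was at 0 in all day 14 or all undamaged libraries. Most of the undamaged sum came from Tbx18, at 45.0 to 52.8 CPM. Without Tbx18 the other 9 markers summed to 242 (D1 negative), 109 (D1 positive), 77.9 (D9 negative) and 29.3 CPM (D9 positive), against 0 to 9.37 CPM in undamaged libraries, with no overlap. The same order of the 4 libraries held for Wnt4, Cxadr, Serpinb2, Saa3 and Clu above, and among others for Runx1, Comp, Tnn and Col24a1. The part of mesothelial cells in any of these differences was not tested. Without D1, 2 of the 10 markers were called higher, and with summed codes Lrrn4 alone.

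Endothelial markers fell in 5 of 14 cases (Pecam1, Cdh5, Flt1, Eng and Vwf) and rose in none (2 lower and 1 higher against the 4 undamaged libraries with a number). Pecam1 encodes CD31, which the sort excluded. Pecam1 stood at 11.6 and 5.76 CPM in the Sca-1 positive and 4.07 and 6.57 CPM in the Sca-1 negative day 14 libraries, against 23.9 to 57.2 CPM (median 39.5) in undamaged libraries. No library overlapped (log2 difference -2.51 ± 0.30, adjusted p = 0.000115), and Pecam1 was called with summed codes (adjusted p = 0.0348). The summed level of the 14 markers was 469 to 725 CPM in day 14 libraries and 731 to 1132 CPM in undamaged libraries, and none was at 0 throughout. Most of this sum came from Eng and Ly6c1, which stromal cells express as well, and from Tek, at 109 to 212 CPM at day 14 and 127 to 241.5 CPM in undamaged libraries. The other 11 markers summed to 31.6 to 56.7 CPM at day 14, against 63.3 to 292 CPM in undamaged libraries. The part of residual endothelial cells in the genes that fell, such as Apold1, Id1 and Rgcc, was not tested. Adipoq and Plin1, adipocyte genes, were called higher on the D9 libraries: Adipoq stood at 0.208 and 3.70 CPM in the Sca-1 positive and 0 and 7.36 CPM in the Sca-1 negative day 14 libraries, against 0 to 0.0509 CPM (median 0) in undamaged libraries, and without D9 both dropped out of the test. Their summed list reached 12.97 CPM at day 14 and 4.79 CPM in an undamaged library. No macrophage marker of 13 tested was called (summed 16.1 to 39.5 CPM at day 14 and 11.6 to 46.7 CPM in undamaged libraries), with Ptprc, the gene of CD45, at 0.311 and 0.316 CPM in the Sca-1 positive and 0.687 and 0.177 CPM in the Sca-1 negative day 14 libraries, against 0 to 1.13 CPM (median 0.278) in undamaged libraries. Of 13 cardiomyocyte markers tested Myh6 alone was called, as lower (adjusted p = 0.0476), and not with a random effect of the code (adjusted p = 0.115), whereas 4 of 12 were lower against the 4 undamaged libraries with a number (median -1.81). The summed level was 322 to 441 CPM at day 14, against 273 to 639 CPM in undamaged libraries, nearly all of it from Atp2a2, a calcium pump of many cell types. Without Atp2a2 the sum was 13.3 to 31.7 CPM at day 14, against 16.1 to 117.6 CPM in undamaged libraries. Mural markers had 1 higher (Des) and 1 lower (Abcc9) of 12, or 8.33% each. Schwann cell markers had 1 higher (Ngfr) and 1 lower (Cdh19) of 5, or 20% each. Over all genes 5.5% were higher and 3.48% lower, and each of these shares rests on 1 gene. With a random effect of the code Abcc9 and Ngfr were not called (adjusted p = 0.0526 and 0.13). Des and Cdh19 were not called without D1 (adjusted p = 0.278 and 0.15) or with summed codes (adjusted p = 0.174 and 0.24). Ngfr, which is also expressed by other stromal cells, was high in D9 alone, at 1.66 and 37.95 CPM in the Sca-1 positive and 2.70 and 24.1 CPM in the Sca-1 negative day 14 libraries, against 0.526 to 5.08 CPM (median 1.63) in undamaged libraries. The lymphoid list had 1 tested gene and the erythroid list 1, neither called.

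**Figure D4:**
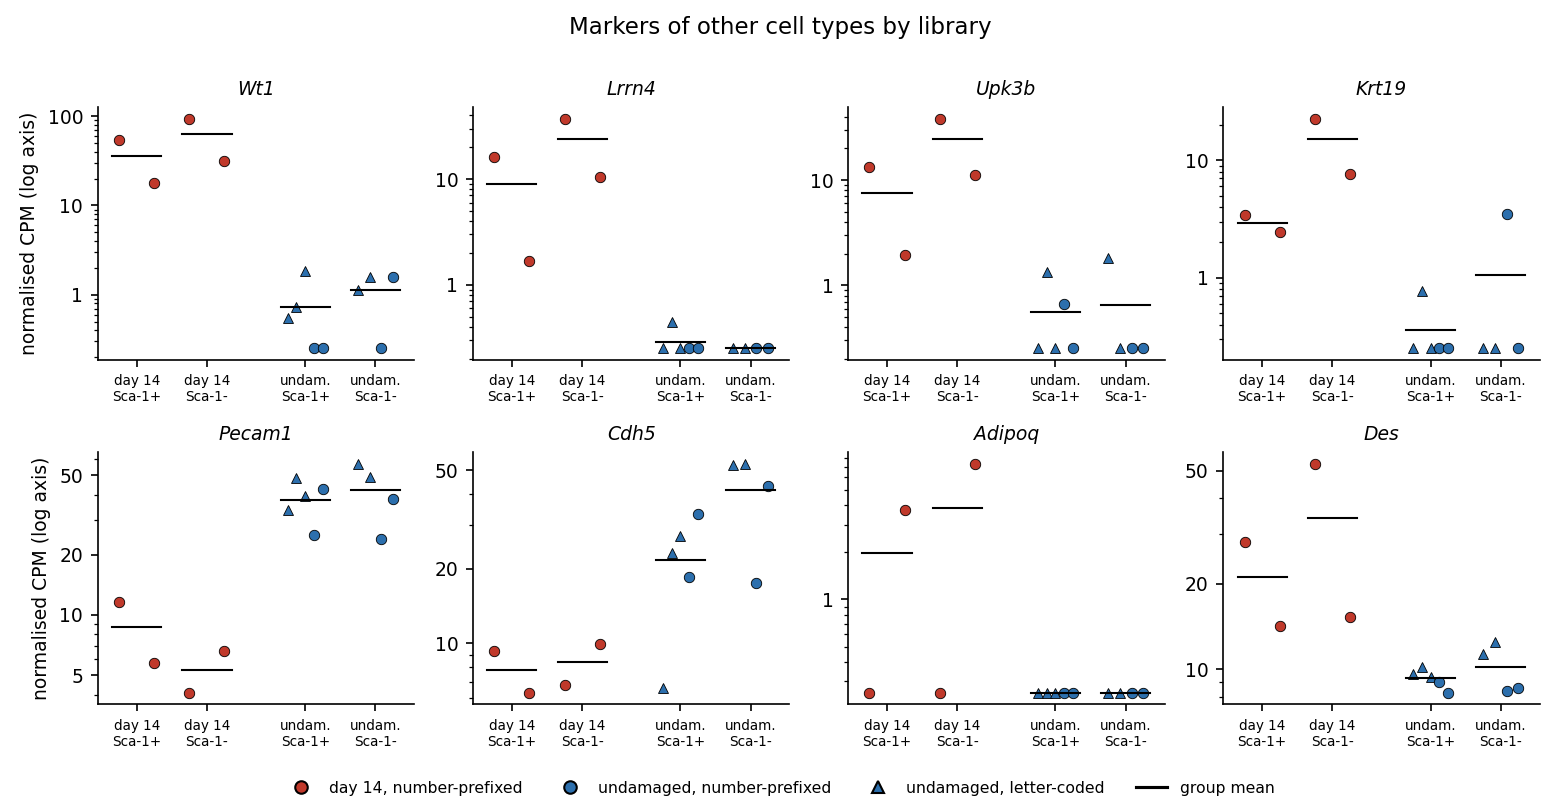
Levels of 8 markers of other cell types in TMM-normalised CPM on a log axis, with day 14 left of undamaged in each gate, D1 left of D9 and black bars for group means. Values under the highest level that 3 counts give in any of the libraries are drawn at that level. Within each gate the epicardial and mesothelial markers are higher in D1 than in D9, and Adipoq is higher in D9. Pecam1 is below the undamaged range in all 4 day 14 libraries.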

How the data were processed

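RNA sequencing of sorted stromal cells was deposited as counts of reads per gene, whole numbers that the authors had not normalised. Paired-end sequencing followed a stranded mRNA library protocol, per the labels. The submitters' processing notes name STAR, TopHat, Bowtie2, Cufflinks and bcl2fastq and mm10 as build; which program counted reads, with which strand option and gene models, is not given in the sources used here, so overlapping, antisense and near-identical genes can share reads. Of 24421 symbols, 23376 (95.7%) matched GENCODE M21, the source of identifiers and of positions in GRCm38. The 2 entries that name no gene (reads outside genes, 5.53% to 16.3% of a library, and ambiguous reads) stayed out of library sizes and tests. Counts carry no molecular identifiers, and the 3-count floor covers counting error only.

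Groups came from the labels. The tests used edgeR 4.0.16 under R 4.3.3, with TMM normalisation, edgeR's filter for low counts on the gate-by-time groups, and two-sided quasi-likelihood tests on the 13 libraries with the gate as covariate, with Benjamini-Hochberg adjusted p under 0.05 as the threshold. The 2 day 14 libraries of a gate borrow their spread from all groups. CPM are TMM-normalised and computed here from the deposited counts. Gate contrasts and their interaction came from a fit on 4 gate-by-time groups. DESeq2 1.42.0 and limma 3.58.1 (voom) were alternatives. On simulated counts with the design of all undamaged libraries, 55.6% of changes of 1 on the log2 scale and 75.5% of changes of 2 were recovered with 3 false calls. With the 4 undamaged libraries with a number, the shares were 37.1% and 69.8% with 4 false calls. Simulated libraries were independent draws without effects of code, gate or a number before the code. These rates therefore need not hold for the real libraries, which deviate together by code.

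Codes are nested in time and cannot be a fixed block. Pairing was checked through deviations from group means across 13815 genes: libraries of the same code in both gates correlated at 0.256 (A6), 0.332 (B7), 0.373 (F3) and 0.409 (D1 and D9, mirrored), each above 0.1. Undamaged libraries of different codes without a number (E1, E3, F3 and E5) also correlated across the gates, at 0.223 to 0.379. Between the codes with a number the values were lower, at 0.0723 (positive A6 with negative B7) and 0.0323 (positive B7 with negative A6). Whether the correlation follows the code or the presence of a number was not tested. Codes were treated as pairs, either as a random effect in limma-voom (correlation 0.314) or by summing the gates of a code. The genes behind a correlation are not independent of each other.

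Genes were named by rule: 12 anchors, up to 10 per direction of largest change (a mean of 3 or more on the log2 CPM scale, no overlap within either gate, same direction against the 4 undamaged libraries with a number, predicted models left out), and for each of 31 lists the 3 members with the smallest p. Other list members that were called are named as such, and those given with values outside the rule (Fn1, Lox, Id1, Bmp4, Mki67, Upk3b and the genes of the closing section) were chosen after their values were seen. Members, lists and tests were chosen with earlier results of these data known, so lists were described by counts and medians without a set test. Of the genes that the rule gave, 2 are not reported here. Day 7 and day 28 libraries entered only an alternative fit.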

Additional observations from a re-analysis of the deposited data

Results flagged for a closer look

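Among 196 groups of 4 or 5 undamaged libraries (named genes with a library above the level that 3 counts give in the shallowest library), 16 held a library whose gap to its neighbour, divided by the range of the group, exceeded Dixon's critical value of 0.829 for 4 or 0.71 for 5 libraries. Chance flags about 1 in 20 groups. Day 14 has 2 libraries per gate and was not examined in this way.

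Several cases concern genes close to 0 counts. Tnn was high in the positive library E1 (0.333 CPM). Cemip was high in negative E5 (0.424 CPM) and positive E1 (0.889 CPM). Lrrn4 (0.445 CPM) and Upk1b (0.556 CPM) were high in positive E3. Xist was high in negative E5 (0.353 CPM) and Kcna1 in negative A6 (0.76 CPM). Each of these levels was below every day 14 library of Tnn, Cemip, Lrrn4 and Upk1b.

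Among better expressed genes, Col1a1 was low in positive B7 at 3204 CPM, against 4057 to 4371 CPM in the others of the gate. Adam12 (7.77 CPM) and Ncam1 (15.3 CPM) were high in negative A6, Mfap2 (42.7 CPM) in negative F3, and Nkd1 (7.12 CPM) and Cdh19 (64.5 CPM) in positive F3. Thy1 was high in positive A6 at 132 CPM, Ngfr in positive E3 at 2.61 CPM and Csf1r in positive B7 at 5.46 CPM. None of these removed the gap between day 14 and undamaged libraries for Col1a1, Adam12, Ncam1 or Mfap2.

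The day 14 change differed between the gates for 5 genes by the interaction test of DESeq2. As log2 differences, positive minus negative gate, the values were 4.05 for Ntrk2, 3.87 for Tmem132c, 2.4 for Aoc3, -1.02 for Mfap5 and -2.17 for Nov. By edgeR's quasi-likelihood test the adjusted p of these 5 interactions was 0.927 at the lowest, for Ntrk2, and none was called.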

How the results depend on the processing

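Depth and group size limit these calls: day 14 has 2 codes, of which 1 differs in Xist and Y-linked genes, and 3 of the 4 undamaged libraries with a number have few detected genes. Over all libraries (760 higher, 481 lower) the counts stayed within 1.5 times under limma-voom, upper-quartile factors, both filters, thinning, no gate, all 26 libraries and the code family as a covariate, and DESeq2 gave 801 lower. Counts ranged from 413 to 903 higher and 189 to 698 lower on leaving out 1 library, the lowest both without the negative D1 library. They were 236 and 107 without D1, 506 and 159 without D9, 401 and 164 with the 4 undamaged libraries with a number, 203 and 41 in positive libraries alone, 116 and 24 in negative libraries alone, 1815 and 1677 without the 3 undamaged libraries with few genes, and 42 and 5 with the replicate block by summing gates (19 of 91 called named genes kept their call). The random replicate block gave 676 and 328 (74 of 91). The settings also differ in the number of samples, and the cause of these shifts was not tested.

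Against the 4 undamaged libraries with a number (401 and 164), DESeq2 gave 1006 and 456, no filter 765 and 272, the random replicate block 240 higher, and the summed block 5 (among them Cemip, Trabd2b, Cthrc1 and Mdk) and 0. Leaving out 1 library gave 170 to 372 higher and 49 to 142 lower, without D1 130 and 48, and without D9 62 lower. In the positive gate (174 and 33), DESeq2 gave 312 and 134, limma-voom 56 lower, the random replicate block 266 and 59, the 4 libraries with a number 23 and 2, the family covariate 317 and 64, and leaving out the 3 libraries 605 and 278. Leaving out 1 library gave 54 to 233 and 2 to 57, without D1 46 and 15, and without D9 109 and 4. In the negative gate (304 and 134), DESeq2 gave 555 and 375, the random replicate block 226 lower, the 4 libraries with a number 113 and 16, the family covariate 672 and 269, and leaving out the 3 libraries 821 and 822. Leaving out 1 library gave 49 to 419 and 21 to 200, without D1 36 and 28, and without D9 175 and 19. The gate difference (0 and 0) became 3 and 2 by DESeq2, 2 and 1 without the 3 libraries, and 1 and 0 without positive B7.

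Of the called named genes only Ngfr changed sign in any alternative, to -0.13 without D9. Among uncalled genes, 5 changed sign. Ly6a was -0.47 without the gate term, -0.42 in positive libraries, -0.0032 with summed codes, -0.43 without the 3 libraries, -0.48 with all 26, -0.0055 without D9 and -0.17 to 0.20 on leaving out 1 library. Hic1 was 0.0018 without negative D1, 0.22 without D1, 0.088 with the 4 libraries with a number, 0.093 with the family covariate and 0.063 in positive libraries. Ptprc was -0.10 to 0.54 on leaving out 1 library, -0.24 without D1 and -0.35 without the 3 libraries. The uncalled decreases of Alas2 (-1.25) and Cycs (-1.10) were not kept against the 4 libraries with a number: Alas2 was 0.16 by limma-voom, 1.54 with the 4 libraries and 1.51 with the covariate, and Cycs 0.10 with the 4 libraries and 0.097 with the covariate.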

Other observations

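Genes outside the lists that were called with the gates of a code summed were chosen after their values were seen and are given as values. Jchain, which encodes the joining chain of immunoglobulins and is typical of plasma cells, stood at 24.9 and 24.3 CPM in the Sca-1 positive and 3.75 and 1.18 CPM in the Sca-1 negative day 14 libraries, against 0 to 0.611 CPM in undamaged libraries. It was higher in the positive than in the negative gate at day 14, the reverse of the epicardial and mesothelial markers that were called higher. The summed level of the lymphoid markers was 0.264 to 0.631 CPM at day 14, against 0.042 to 2.79 CPM in undamaged libraries. Its source was not tested.

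Ephb2, a receptor tyrosine kinase for ephrins, was even across day 14, at 36.1 and 42.9 CPM in the Sca-1 positive and 28.8 and 30.8 CPM in the Sca-1 negative day 14 libraries, against 3.53 to 6.17 CPM in undamaged libraries (log2 difference 2.80 ± 0.18, adjusted p = 8.78e-07). Ednra, the receptor of endothelin, stood at 30.2 and 35.03 CPM in the Sca-1 positive and 51.1 and 39.5 CPM in the Sca-1 negative day 14 libraries, against 0.526 to 17.7 CPM in undamaged libraries (log2 difference 2.02 ± 0.46, adjusted p = 0.0117). Palld, which encodes the actin-associated protein palladin, stood at 209.8 and 121 CPM in the Sca-1 positive and 298 and 115 CPM in the Sca-1 negative day 14 libraries, against 7.39 to 36.4 CPM in undamaged libraries (log2 difference 3.72 ± 0.33, adjusted p = 8.52e-06). Cdh2, the gene of N-cadherin, stood at 43.2 and 19.3 CPM in the Sca-1 positive and 85.4 and 31.4 CPM in the Sca-1 negative day 14 libraries, against 4.68 to 11.5 CPM in undamaged libraries (log2 difference 2.65 ± 0.31, adjusted p = 7.85e-05). In each of these genes all day 14 libraries were above all undamaged libraries. Piezo2, a mechanically gated ion channel, stood at 60.9 and 50.3 CPM in the Sca-1 positive and 111 and 58.002 CPM in the Sca-1 negative day 14 libraries, against 9.22 to 21.5 CPM in undamaged libraries (log2 difference 2.15 ± 0.20, adjusted p = 1.68e-05).

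Fam107a, an actin-associated and stress-responsive gene, was lower in every day 14 library, at 0.934 and 0.168 CPM in the Sca-1 positive and 0.687 and 0.531 CPM in the Sca-1 negative day 14 libraries, against 4.39 to 20.02 CPM in undamaged libraries (log2 difference -4.30 ± 0.48, adjusted p = 6.85e-05). Within day 14 some genes differed between the codes in both gates. Ngfr and Adipoq were higher in D9 and Saa3, Spp1, Col6a5 and Serpinb2 in D1. Saa3, Spp1 and Serpinb2 were also higher in the negative than in the positive gate within each code. Spp1 stood at 76.1 and 2.06 CPM in the Sca-1 positive and 133 and 11.9 CPM in the Sca-1 negative day 14 libraries, against 0.336 to 9.18 CPM in undamaged libraries, so that the D9 libraries lay near or within the undamaged range (log2 difference 4.20 ± 0.82, adjusted p = 0.00442). With 2 codes that also differ in sex-linked genes, such differences cannot be told apart from sex.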
